A study of Mus musculus with 16 samples.

Results

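The genes described here are 3 neurotrophin ligands (Bdnf, Ntf3 and Ntf5), their receptors Ntrk2, Ntrk3 and Ngfr, and the sorting receptor Sort1. They were chosen by name, as the rows of the deposited gene counts whose Ensembl identifiers carry these mouse symbols, and all 7 were found among the 41388 genes listed. Their RNA was sequenced in 16 libraries of primary cortical neurons from Swiss Webster mouse embryos at embryonic day 16. The neurons were transduced with lentiviruses at day 5 in vitro, and RNA was taken at day 10. All 4 groups carried a lentivirus for exon 1 of huntingtin (Htt), the gene of Huntington disease, together with a lentivirus for a short hairpin RNA (shRNA). The 25Q control group had an exon 1 with 25 glutamines and a luciferase shRNA, and the 72Q control group had 72 glutamines and the same luciferase shRNA. The other groups had 72Q exon 1 with Twist1 shRNA #1 or Twist1 shRNA #2, which target the messenger RNA of Twist1, a transcriptional regulator of the basic helix-loop-helix (bHLH) family known from mesoderm and the neural crest. Each group had n = 4 libraries, 1 from each of the experiments labelled exp107, exp108, exp109a and exp109b. The labels exp109a and exp109b share a number, and whether they were separate experiments is not said. Which promoters drove the viral inserts is not stated in the labels, and neither untransduced neurons nor 25Q neurons with a Twist1 shRNA were analysed here.

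Neurotrophins are secreted survival and growth factors of neurons. They are made as precursors, cleaved by proprotein convertases, and sorted into dense-core vesicles that in cortical neurons travel along axons, a step in which huntingtin takes part. Mature brain-derived neurotrophic factor (Bdnf) and neurotrophin 4 (Ntf5) activate the receptor tyrosine kinase TrkB (Ntrk2), neurotrophin 3 (Ntf3) activates TrkC (Ntrk3), and all bind the low-affinity receptor p75NTR (Ngfr). Sortilin (Sort1) steers the Bdnf precursor into the regulated secretory route and joins p75NTR as a receptor for precursors. Cortical Bdnf supplies striatal neurons, the cells most affected in Huntington disease, and loss of its transcription in cortical cells with mutant huntingtin is a classical observation of that field. The Bdnf gene has many first exons, each with its own promoter. The best known activity-dependent promoter lies before exon IV and carries elements for calcium-responsive factors and for bHLH factors.

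RefSeq promoter windows on GRCm38.p6, from 250 bases before to 50 after a transcript start, were at hand for 4 of the 7 genes, with 7 windows for Bdnf, 2 for Ntf3 and 1 each for Ntrk2 and Ngfr. None was used for Ntf5, Ntrk3 and Sort1. The windows were searched on both strands for the general E-box CANNTG, the DNA element of bHLH factors, for its forms CATATG and CAGATG (with its reverse complement CATCTG) that Twist-type factors prefer, for the cyclic AMP response element TGACGTCA, and for its core TGACG. The general E-box was in 6 of 7 Bdnf windows and in 72.3% of all 32851 windows of the table. CATATG was in 2 of 7 Bdnf windows, the third and the fourth, and in 3.91% of all windows. These sequences are shown because they are the only ones of the 11 windows with that form. The 250 bases before each start are printed, with the E-box in capitals.
Bdnf start 3 (chr2:109692186-109692435, plus strand): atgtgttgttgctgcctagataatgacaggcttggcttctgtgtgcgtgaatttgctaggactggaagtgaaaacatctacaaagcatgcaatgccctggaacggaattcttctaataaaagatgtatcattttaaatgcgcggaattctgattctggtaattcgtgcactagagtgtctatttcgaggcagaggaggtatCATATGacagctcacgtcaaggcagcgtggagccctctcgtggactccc
Bdnf start 4 (chr2:109692777-109693026, plus strand): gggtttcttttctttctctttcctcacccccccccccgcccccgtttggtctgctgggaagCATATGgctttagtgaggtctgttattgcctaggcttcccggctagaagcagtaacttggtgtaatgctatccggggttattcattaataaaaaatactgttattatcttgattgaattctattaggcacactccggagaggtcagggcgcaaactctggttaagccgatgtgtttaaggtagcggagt
Start 3 coincides with the first base of the fourth exon block of the deposited gene model, the exon known as IV, and its CATATG begins at position -49 from the start. A TGACG core, on the opposite strand, begins at -35 in that window, and TGACG was in 20.8% of all windows. Start 4 coincides with the fifth block, and its CATATG begins at -189. The full element TGACGTCA was in none of the 11 windows and in 1.79% of all windows. A letter match describes a window and does not show that a factor binds there.

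CAGATG or its reverse complement, which are the same sites read on either strand, was in 17.2% of all windows. Among the 7 genes it was in the seventh Bdnf window at -221, in the first Ntf3 window at -48 and in the Ntrk2 window at -138. The Ntf3 and Ntrk2 sequences are shown because these genes moved with the 72Q or the shRNA groups, as described further on. The seventh Bdnf window is not printed, although Bdnf moved too. Neither Ntf3 start 1 nor the Ntrk2 start begins an exon block of the deposited model. Ntf3 start 2 does, and its window held general E-boxes but no form searched for Twist.
Ntf3 start 1 (chr6:126164961-126165210, minus strand): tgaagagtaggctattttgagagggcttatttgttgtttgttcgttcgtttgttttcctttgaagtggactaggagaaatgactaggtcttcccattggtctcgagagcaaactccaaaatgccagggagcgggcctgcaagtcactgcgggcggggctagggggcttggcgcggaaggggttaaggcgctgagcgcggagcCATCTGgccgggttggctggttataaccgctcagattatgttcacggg
Ntrk2 start (chr13:58806319-58806568, plus strand): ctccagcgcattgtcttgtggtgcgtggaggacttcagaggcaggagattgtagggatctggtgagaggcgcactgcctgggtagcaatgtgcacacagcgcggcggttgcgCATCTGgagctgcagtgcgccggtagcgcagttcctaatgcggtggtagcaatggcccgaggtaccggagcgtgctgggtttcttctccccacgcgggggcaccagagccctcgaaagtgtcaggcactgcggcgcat
The Ngfr window held general E-boxes but no form searched for Twist. The counts in the files are summed over all exons of a gene, so a change of Bdnf cannot be assigned to 1 of its starts, and full-length and truncated forms of TrkB cannot be told apart. The map of Bdnf starts shows that 6 of the 7 RefSeq starts begin an exon block of the deposited model.

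**Figure D1:**
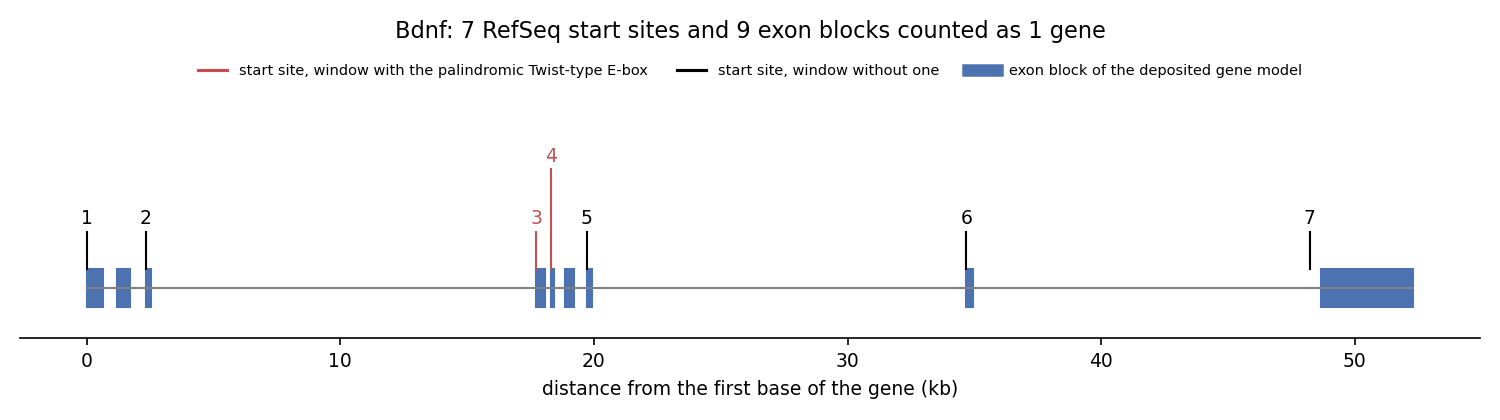
Map of the Bdnf gene on the distance from its first base (kb, horizontal axis), with the 9 exon blocks of the deposited gene model as boxes and the 7 RefSeq start sites as numbered lines. Starts 3 and 4, drawn in red, are those whose promoter windows hold the palindromic Twist-type E-box (CATATG), and start 7 does not begin a block of the deposited model.

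Libraries held 15814525 to 19533034 counts, and 15103 genes passed the filter on low counts. Levels are CPM (counts scaled to library size) after scaling of libraries by TMM, as mean ± SD with n = 4 unless said otherwise. The targeted gene Twist1 had 0 to 9 counts in the 25Q libraries, 54 to 87 in 72Q control, 16 to 33 with Twist1 shRNA 1 and 26 to 40 with shRNA 2. In CPM this was 0.271 ± 0.225, 4.15 ± 0.763, 1.57 ± 0.452 and 1.64 ± 0.403. Twist1 was thus lower with both shRNAs, by -1.35 ± 0.20 (SE) and -1.29 ± 0.19 on the log2 scale (adjusted p = 1.52e-06 and 2.97e-06). Mouse Htt lay between 192 and 312 CPM in all libraries. By the test named below it was lower in 72Q control than in 25Q (-0.18 ± 0.053, adjusted p = 0.00528). Against 72Q control it was lower with shRNA 2 (-0.13 ± 0.053, adjusted p = 0.0475) and not called with shRNA 1 (0.053 ± 0.053, adjusted p = 0.434). Markers of cortical neurons were present in every library, with none of the 13 at 0.

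Per kilobase of gene model, Ntrk2, Sort1 and Ntrk3 were far more abundant than the ligands, whereas the receptor Ngfr was not. In the 25Q group Ntrk2 had the highest level of the 7 genes at 98.2 ± 14.3 RPKM (SD, n = 4), above 97.0% of the genes tested. Sort1 followed with 52.4 ± 4.83 RPKM and Ntrk3 with 17.8 ± 3.20 RPKM. Libraries of these neighbours in the order did not overlap in any of the 4 groups. Of the ligands, Ntf3 had 2.78 ± 0.811 RPKM and Bdnf 1.71 ± 0.108 RPKM in 25Q, with overlapping libraries, so their order is not resolved there. In 72Q control Bdnf was the higher, at 1.22 ± 0.296 against 0.502 ± 0.0867 RPKM for Ntf3, without overlap. Ngfr and Ntf5 came last in every group, with group means from 0.30 to 0.545 RPKM for Ngfr and 0.0931 to 0.480 RPKM for Ntf5. Neighbours in the order also overlapped for Bdnf and Ntf3 with shRNA 1, for Ntf3 and Ngfr in 72Q control and with shRNA 2, and for Ngfr and Ntf5 in both shRNA groups. Ntf5 had only 1 to 27 counts per library and passed the filter on low counts through the 4 shRNA 2 libraries alone, so its call there was favoured by the filter.

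**Figure D2:**
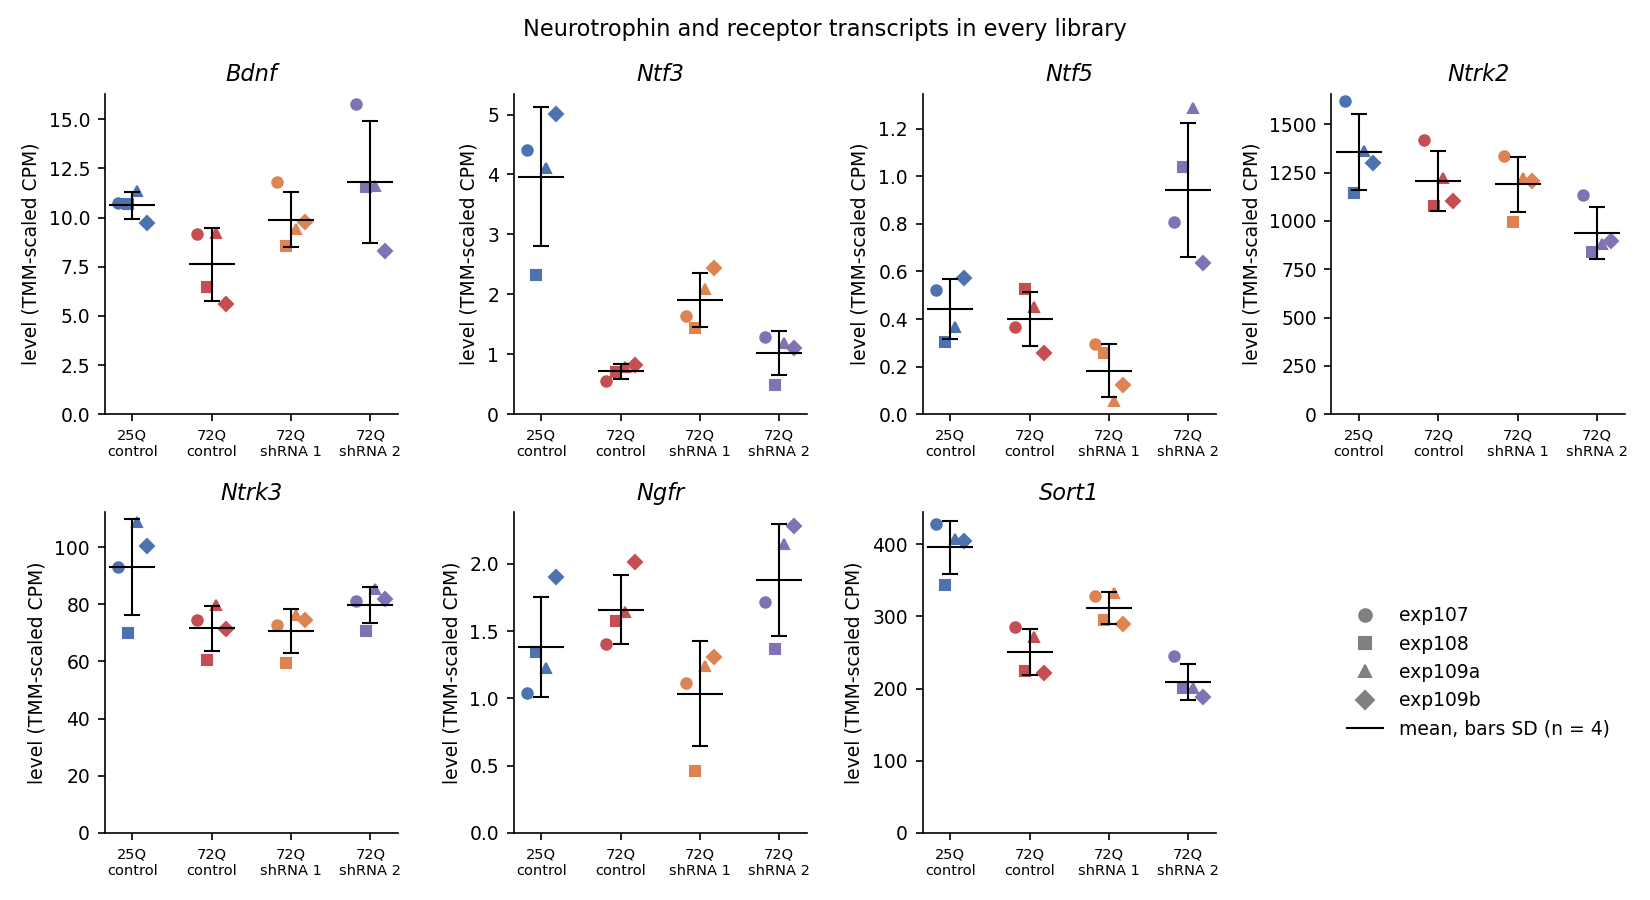
Level of each of the 7 genes (TMM-scaled CPM, vertical axes starting at 0, a scale of its own for each gene) in the 4 groups, with 1 point per library, shaped by experiment, and lines for mean and SD (n = 4). Ntf3 lies at 2.32 to 5.02 CPM in 25Q and at 0.549 to 0.826 CPM in 72Q control, and Sort1 at 343 to 428 against 222 to 285 CPM.

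Against 25Q, 72Q control neurons had less RNA of 5 of the 7 genes, namely Bdnf, Ntf3, Ntrk2, Ntrk3 and Sort1, and none rose. The test was edgeR's quasi-likelihood test with the experiment as a block, Benjamini-Hochberg adjusted over all 15103 genes at 0.05, and it is meant by every adjusted p below. It called 57.1% of all genes in this comparison, and 27.8% as lower. The 5 lower genes are 71.4% of the 7. The median change of the 7 genes was -0.37 on the log2 scale against 0.03 for all genes. The 25Q and 72Q libraries did not overlap for 3 genes, Bdnf, Ntf3 and Sort1, and for 38.3% of all genes. In the same comparison all 13 cortical neuron markers fell, their summed level going from 9306 to 10456 CPM in 25Q to 5916 to 7145 CPM in 72Q control, and 6 of 12 astrocyte markers rose. In such bulk RNA, fewer cells of a type and less RNA per cell cannot be told apart, and the part of these markers in the results was not tested.

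With Twist1 shRNA 1, 3 of the 7 genes rose over 72Q control (Bdnf, Ntf3 and Sort1) and Ngfr fell, in a comparison in which 46.3% of all genes were called. Without the experiment as a block 2 of the 7 genes were called there, and 4561 of all 15103 genes, against 6999 with it. With Twist1 shRNA 2, Bdnf, Ntf5 and Ntrk3 rose and Ntrk2 and Sort1 fell, with 41.8% of all genes called. Here 3 of 7 were called without the block, and 3621 of all 15103 genes, against 6307 with it. Bdnf was the only gene of the 7 that was called upward with both shRNAs. The libraries with shRNA 1 did not overlap with 72Q control for 3 genes, Ntf3, Ngfr and Sort1 (29.0% of all genes). Those with shRNA 2 did not overlap with it for 1 gene, Ntf5 (22.4%). Set directly against each other, the shRNAs differed in 6 of the 7 genes, all but Bdnf, where 53.2% of all genes differed. Libraries did not overlap for 4 of them, Ntf3, Ntf5, Ngfr and Sort1 (33.2% of all genes). Without Ntf5, which was tested only because of its level with shRNA 2, 5 of 6 genes were called between the shRNAs. For shRNA 2 against 72Q control 4 of 6 were then called, and none was without overlap. The shRNA comparisons share the 72Q control libraries, so their values are given side by side for each gene. The plot of fitted changes shows all 3 contrasts.

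**Figure D3:**
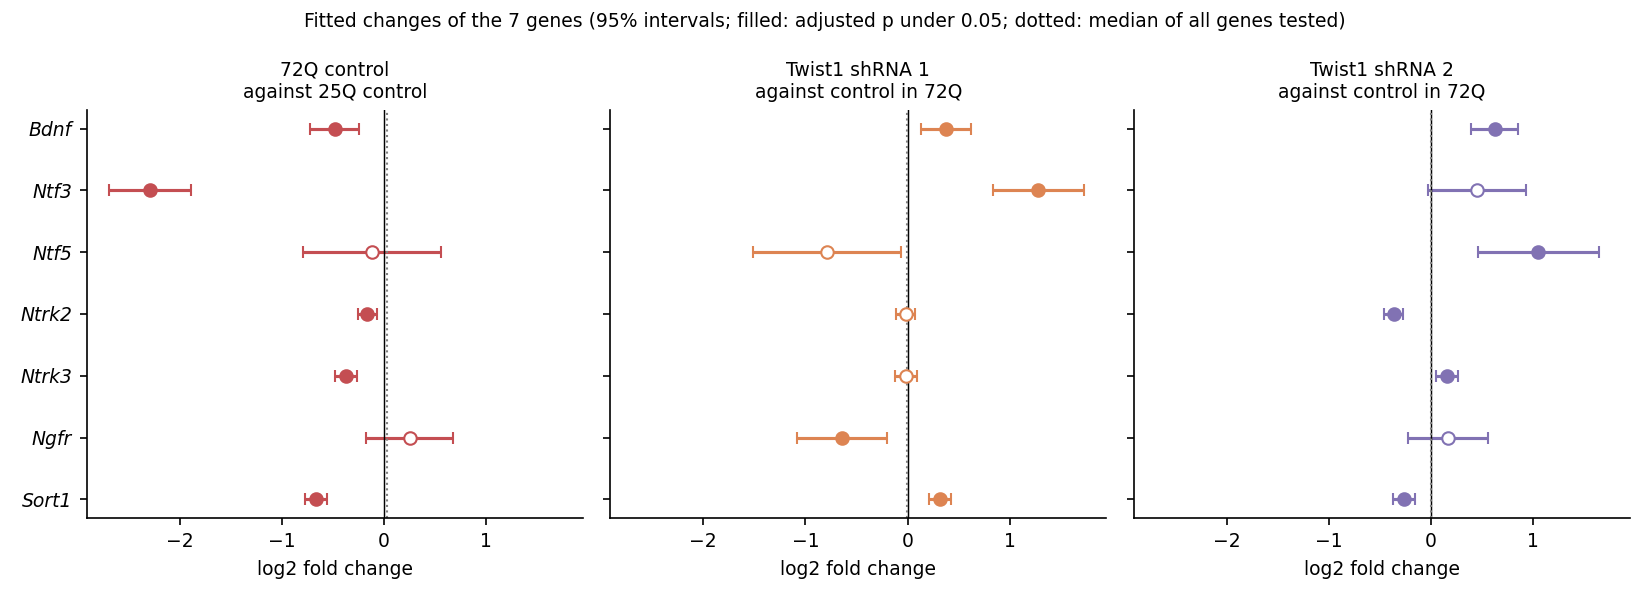
Fitted log2 fold change of the 7 genes (horizontal axes) for 72Q control against 25Q and for each Twist1 shRNA against 72Q control, with 95% intervals, filled where the adjusted p was under 0.05 and with the median of all genes tested as a dotted line. Ntf3 has the lowest value, -2.29 in 72Q against 25Q, and Sort1 lies at 0.32 with shRNA 1 and at -0.26 with shRNA 2.

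Bdnf, the main TrkB ligand of cortex (ENSMUSG00000048482, chr2:109674700-109727007, plus strand, 9 exon blocks), was lower in 72Q and higher again with each Twist1 shRNA. Its levels in experiments exp107, exp108, exp109a and exp109b were 10.7, 10.7, 11.3 and 9.72 CPM in 25Q. The 72Q control libraries, in the same order, had 9.15, 6.48, 9.21 and 5.63 CPM, all below the lowest 25Q library. Bdnf fell by 0.48 ± 0.12 on the log2 scale (1.40-fold, adjusted p = 0.000883), and was lower in 4 of 4 experiments. The 25Q libraries were close together, with an SD of 0.673 CPM, and the 72Q control libraries were more spread, with an SD of 1.84 CPM.

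With Twist1 shRNA 1 the libraries had 11.8, 8.54, 9.43 and 9.79 CPM of Bdnf. Each was above the 72Q control library of its experiment, though the groups overlapped. The rise was 0.38 ± 0.12 (1.30-fold, adjusted p = 0.00961). It was not called without the experiment as a block (adjusted p = 0.123), nor without the exp109b library of shRNA 1, where it was 0.28 (adjusted p = 0.068). With shRNA 2 they had 15.8, 11.5, 11.6 and 8.27 CPM, the exp107 library being the highest of all 16 and the exp109b library below every 25Q library. Here Bdnf rose by 0.62 ± 0.11 (1.54-fold, adjusted p = 5.75e-05), again in 4 of 4 experiments.

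Neither shRNA group differed from 25Q in Bdnf by the test. The difference from 25Q was -0.11 ± 0.11 with shRNA 1 (95% interval -0.34 to 0.13, adjusted p = 0.44) and 0.14 ± 0.11 with shRNA 2 (-0.09 to 0.36, adjusted p = 0.282). Within experiments, shRNA 1 libraries lay from -0.32 to 0.14 and shRNA 2 libraries from -0.23 to 0.56 of the 25Q library on the log2 scale. Without scaling beyond library totals, Bdnf with shRNA 2 was above 25Q by 0.34 (adjusted p = 0.0058). Under that setting the median over all genes went from 0.01 to 0.22 in this comparison, and from 0.03 to 0.16 in 72Q control against 25Q. The shRNAs themselves differed by -0.24 ± 0.11 in Bdnf (shRNA 1 less shRNA 2, unadjusted 95% interval -0.47 to -0.02, adjusted p = 0.0622), which several other settings called.

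Ntf3 (neurotrophin 3, ENSMUSG00000049107, chr6:126101413-126166744, minus strand), the TrkC ligand, had the largest change of the 7 genes in 72Q against 25Q. The 25Q libraries held 4.40, 2.32, 4.11 and 5.02 CPM in the order of experiments above, or 38 to 79 counts. In 72Q control there were 0.549, 0.70, 0.791 and 0.826 CPM, or 9 to 16 counts, so that the highest 72Q library lay below the lowest 25Q library. Ntf3 fell by 2.29 ± 0.20 (4.88-fold, adjusted p = 4.2e-11), lower than all but 0.159% of the genes tested. Twist1 shRNA 1 libraries had 1.65, 1.43, 2.09 and 2.43 CPM, all above every 72Q control library. This rise of 1.28 ± 0.22 (2.43-fold, adjusted p = 1.48e-05) left the gene below 25Q by -1.01 ± 0.17 (adjusted p = 6.95e-06).

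With shRNA 2 the Ntf3 levels were 1.29, 0.492, 1.19 and 1.11 CPM. The exp108 library lay below all 72Q control libraries and the other 3 lay above them. The difference from 72Q control was 0.45 ± 0.24 (95% interval -0.03 to 0.93) and missed the threshold (adjusted p = 0.131). Against 25Q, Ntf3 in this group was lower by -1.84 ± 0.18 (adjusted p = 4.33e-10). The shRNAs differed from each other by 0.83 ± 0.20 (adjusted p = 0.000914), shRNA 1 being the higher in 4 of 4 experiments.

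Ntf5 (neurotrophin 4, ENSMUSG00000074121, chr7:45413695-45417178, plus strand), the other TrkB ligand, was near the limit of these libraries. Counts were 9, 5, 6 and 9 in 25Q, 6, 9, 8 and 5 in 72Q control, 5, 5, 1 and 2 with shRNA 1, and 15, 19, 27 and 12 with shRNA 2. The shRNA 2 libraries thus held more than any other library, and the 2 control groups overlapped. Ntf5 passed the filter on low counts only through the 4 shRNA 2 libraries. Calls of it as higher with shRNA 2 were therefore favoured by the filter. In 72Q against 25Q the difference of -0.12 ± 0.33 (interval -0.79 to 0.56, adjusted p = 0.78) was not detectable at this depth. Ntf5 rose with shRNA 2 by 1.05 ± 0.29 (2.07-fold, adjusted p = 0.00406), and was also above 25Q there by 0.93 ± 0.29 (adjusted p = 0.00635), a call that was lost without the exp109a library of shRNA 2 (0.71, adjusted p = 0.0612). With shRNA 1 the difference from 72Q control was -0.79 ± 0.36 (adjusted p = 0.0707). The fall of 0.91 ± 0.36 from 25Q with shRNA 1 (adjusted p = 0.0312) was not called by DESeq2 (adjusted p = 0.0508) nor without any of 4 libraries, the exp107 and exp109b libraries of 25Q and the exp109a and exp109b libraries of shRNA 1 (0.0604 to 0.15).

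Ntrk2 (TrkB, the kinase receptor of Bdnf and neurotrophin 4, ENSMUSG00000055254, chr13:58806596-59133970, plus strand) had 15311 to 27948 counts per library, the deepest of the 7 genes. Levels in the 25Q group were 1619, 1144, 1362 and 1298 CPM, and in the 72Q control group 1420, 1080, 1225 and 1105 CPM. The groups overlapped because experiments differed, and within each experiment 72Q control was the lower. The fall of 0.16 ± 0.046 (1.12-fold, adjusted p = 0.0032) rests on that pairing, since it was not called without the experiment as a block (adjusted p = 0.28). Without scaling beyond library totals it was -0.029 (adjusted p = 0.55).

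With Twist1 shRNA 1, Ntrk2 was at 1337, 994, 1224 and 1207 CPM, a difference of -0.019 ± 0.046 from 72Q control (95% interval -0.11 to 0.075, adjusted p = 0.763). It was below 25Q by -0.18 ± 0.046 (adjusted p = 0.00116), a call lost with upper-quartile factors (adjusted p = 0.0559), without scaling beyond library totals (-0.057, 0.244), without the block (0.224) and with a block by title number (0.125). The shRNA 2 libraries had 1136, 838, 881 and 897 CPM, the lowest library of each experiment. Ntrk2 fell by 0.37 ± 0.046 with shRNA 2 (1.29-fold, adjusted p = 1.66e-07) and lay below 25Q by -0.53 ± 0.046 (1.44-fold, adjusted p = 3.32e-11). The shRNAs differed by 0.35 ± 0.046 (adjusted p = 2.47e-07). Glia express TrkB too, mainly in its truncated form. Of 12 astrocyte markers, 6 fell with shRNA 2 and none rose, where 21.5% of all genes were lower and 20.2% higher. Their summed level was 2274 to 2871 CPM against 2766 to 3167 CPM in 72Q control. Of 12 oligodendrocyte lineage markers, 9 fell with shRNA 2 and none rose (median -0.49), their sum being 885 to 1103 CPM against 1324 to 1558 CPM in 72Q control. With shRNA 1, where Ntrk2 was not called, 7 of those 12 fell (sum 1064 to 1211 CPM) and 1 astrocyte marker rose and 1 fell. In 72Q control against 25Q, where Ntrk2 fell, 6 astrocyte markers rose and none fell. There 4 oligodendrocyte lineage markers rose and 2 fell, with 29.3% of all genes higher and 27.8% lower. None of either list was at 0, and the part of these cells in the Ntrk2 result was not tested.

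Ntrk3 (TrkC, the neurotrophin 3 receptor, ENSMUSG00000059146, chr7:78192362-78578408, minus strand) was lower in 72Q than in 25Q in 4 of 4 experiments. The 25Q libraries had 93.0, 69.8, 109 and 100.4 CPM and the 72Q control libraries 74.5, 60.6, 79.6 and 71.4 CPM. The experiment exp108 held the lowest library in both groups, and the groups overlapped through it. Ntrk3 fell by 0.37 ± 0.052 (1.29-fold, adjusted p = 4.45e-07). Twist1 shRNA 1 gave 72.7, 59.3, 76.1 and 74.5 CPM, a difference of -0.017 ± 0.052 (interval -0.12 to 0.090, adjusted p = 0.814). Twist1 shRNA 2 gave 81.0, 70.7, 85.3 and 81.8 CPM and a rise of 0.16 ± 0.052 (1.12-fold, adjusted p = 0.014). That rise was not called without the block (adjusted p = 0.372), nor without the exp109b library of 72Q control (0.0749) or the exp108 library of shRNA 2 (0.0898). The difference between the shRNAs, -0.18 ± 0.052 (adjusted p = 0.00511), was likewise not called without the block (adjusted p = 0.262). Ntrk3 was below 25Q with both, by -0.39 ± 0.052 with shRNA 1 (adjusted p = 1.94e-07) and by -0.21 ± 0.051 with shRNA 2 (adjusted p = 0.000671). The latter call was lost without scaling beyond library totals (-0.0018, adjusted p = 0.977), with upper-quartile factors (0.0537), without the block (0.122) and with a block by title number (0.101).

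Ngfr (p75NTR, the receptor shared by the neurotrophins and, with sortilin, of their precursors, ENSMUSG00000000120, chr11:95568818-95587735, minus strand) had 9 to 45 counts per library. Levels were 1.04, 1.34, 1.23 and 1.91 CPM in 25Q and 1.40, 1.58, 1.64 and 2.01 CPM in 72Q control. Although 72Q control was the higher in 4 of 4 experiments, the difference of 0.25 ± 0.21 missed the threshold (95% interval -0.18 to 0.68, adjusted p = 0.313). With shRNA 1 it had 1.12, 0.460, 1.24 and 1.31 CPM, all below every 72Q control library. Ngfr fell by 0.65 ± 0.22 (1.56-fold, adjusted p = 0.0147), and the exp108 library was the lowest of all 16. The fall was -0.46 and not called without that library (adjusted p = 0.0899), nor without the exp108 library of 72Q control (0.0606) or without the block (0.0667). The libraries of shRNA 2, at 1.72, 1.37, 2.14 and 2.28 CPM, differed from 72Q control by 0.17 ± 0.19 (interval -0.22 to 0.56, adjusted p = 0.515). The shRNAs differed by -0.81 ± 0.21 (adjusted p = 0.00155), with no overlap.

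Cells that carry p75NTR in the forebrain and nerve include cholinergic neurons and neural crest derived glia. Of 8 Schwann and neural crest markers, 6 passed the filter, and their summed level was 297 to 362 CPM in 72Q control, 301 to 333 CPM with shRNA 1 and 197 to 244 CPM with shRNA 2, most of it from Ednrb and Sox10, which other cortical cells share. Foxd3, which did not pass the filter, had 0 counts over the 4 libraries of 25Q together, 11 in 72Q control, 2 with shRNA 1 and 18 with shRNA 2. The tested markers of the list did not share that order. Of the 6, 1 rose and none fell in 72Q against 25Q, 1 rose and 1 fell with shRNA 1, and 2 fell and none rose with shRNA 2. Of 7 markers of basal forebrain cholinergic neurons, the acetylcholine-synthesising enzyme Chat had 1 count in 72Q control, none with shRNA 1 and 2 with shRNA 2. The sum of that list was 3.30 to 6.16 CPM in 25Q and 5.60 to 10.7 CPM in 72Q control. It was 4.35 to 7.42 CPM with shRNA 1 and 9.85 to 17.2 CPM with shRNA 2. Of its 6 tested markers, 5 rose and none fell in 72Q against 25Q (median 1.77), where 29.3% of all genes were higher. With shRNA 1, 1 rose and 3 fell (median -0.77), and with shRNA 2, 4 rose and none fell (median 0.87). All 6 were lower with shRNA 1 than with shRNA 2 (median -1.42), where 25.9% of all genes were lower. The part of these cells in the Ngfr values was not tested.

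Sort1 (sortilin, ENSMUSG00000068747, chr3:108284091-108361511, plus strand) was the only gene of the 7 that was called in opposite directions with the 2 shRNAs. The estimates of Ntf5, Ngfr and Ntrk3 also had opposite signs, with 1 call each, that of Ntrk3 with shRNA 1 being only -0.017. In 25Q it had 428, 343, 407 and 405 CPM and in 72Q control 285, 225, 272 and 222 CPM, every 72Q library below every 25Q library. Sort1 fell by 0.66 ± 0.052 (1.58-fold, adjusted p = 8.7e-12). With shRNA 1 the levels were 328, 296, 333 and 290 CPM, between those of the control groups and overlapping with neither. The rise of 0.32 ± 0.052 (1.25-fold, adjusted p = 9.86e-06) left Sort1 below 25Q by -0.34 ± 0.052 (adjusted p = 1.65e-06).

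With shRNA 2 Sort1 was lower still, at 246, 200, 201 and 188 CPM. It fell from 72Q control by 0.26 ± 0.053 (1.20-fold, adjusted p = 0.00017), a call that was lost without the experiment as a block (adjusted p = 0.0578). Against 25Q the fall was 0.92 ± 0.053 (1.9-fold, adjusted p = 3.48e-15), the lowest adjusted p of the 7 genes in that comparison. The shRNAs differed by 0.58 ± 0.053 (adjusted p = 1.72e-10), and every shRNA 2 library was below every shRNA 1 library. An antisense gene, Gm12523, shares 329 exonic bases with Sort1 in the deposited model and had 0 to 10 counts per library. No listed gene overlaps any of the other 6 genes.

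Measured against 25Q, 72Q neurons with shRNA 1 had lower levels of 5 genes (Ntf3, Ntf5, Ntrk2, Ntrk3 and Sort1) and a higher level of none, where 57.4% of all genes were called. With shRNA 2 there were 4 lower genes (Ntf3, Ntrk2, Ntrk3 and Sort1) and 1 higher, Ntf5, where 63.3% were called. Leaving out Ntf5, which passed the filter only through shRNA 2, 4 of 6 genes were lower in each, where 29.4% of all genes were lower with shRNA 1 and 31.8% with shRNA 2. Libraries did not overlap with 25Q for 2 genes with shRNA 1, Ntf5 and Sort1 (40.1% of all genes). With shRNA 2 they did not for 4 genes, Ntf3, Ntf5, Ntrk2 and Sort1 (43.4%). The highest shRNA 1 library and the lowest 25Q library of Ntf5 both had 5 counts, or 0.294 and 0.306 CPM after scaling. The plot of ratios to 25Q shows these differences library by library.

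**Figure D4:**
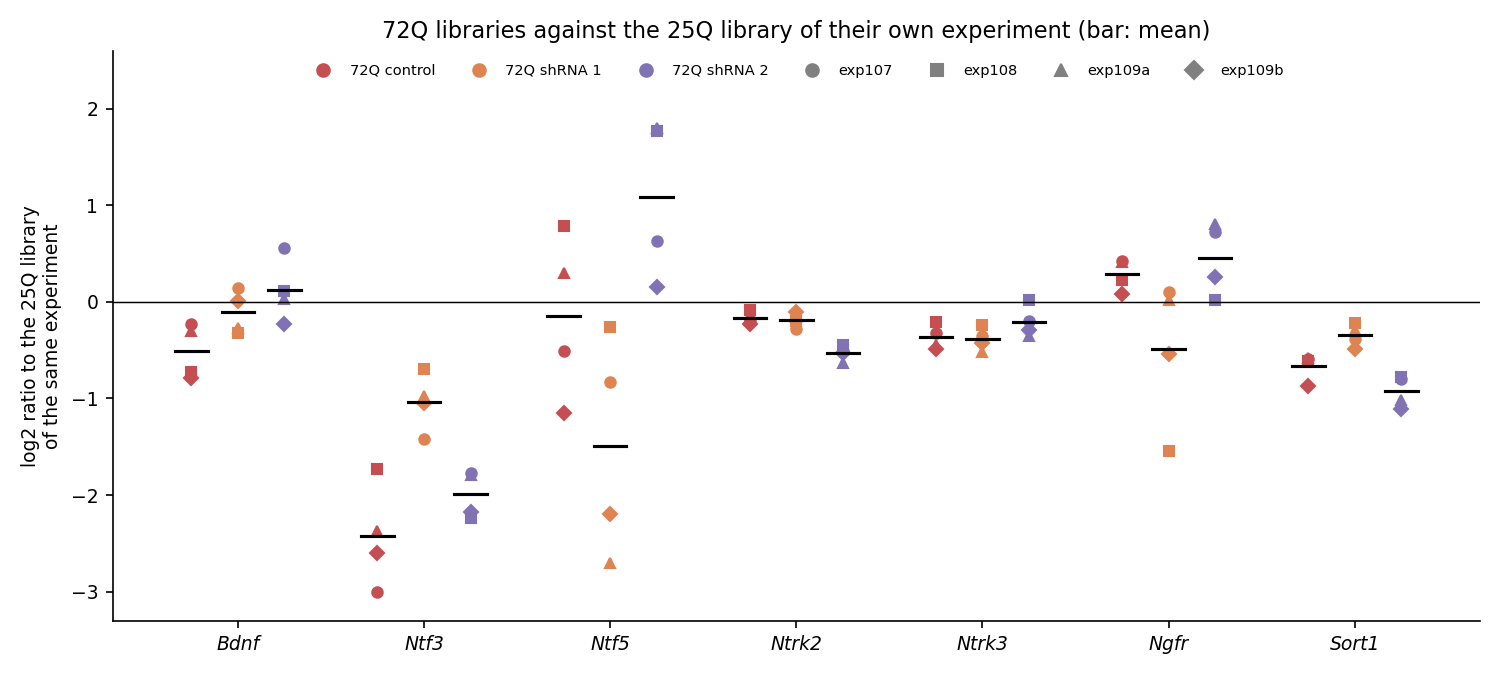
Log2 ratio of each 72Q library to the 25Q library of its own experiment (vertical axis, 0 meaning no difference) for the 7 genes, with colours for the 72Q groups, shapes for experiments and a bar for the mean. Bdnf lies from -0.79 to -0.23 in 72Q control, from -0.32 to 0.14 with shRNA 1 and from -0.23 to 0.56 with shRNA 2, whereas all Ntf3 points lie below 0.

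The wider pathway was described with 7 lists of genes, to be read against the shares over all genes tested. These were 27.8% lower and 29.3% higher in 72Q against 25Q. Against 72Q control they were 23.6% lower and 22.7% higher with shRNA 1, and 21.5% lower and 20.2% higher with shRNA 2. Of 16 tested genes among other neurotrophin ligands and receptors, 11 fell in 72Q against 25Q and none rose, with a median of -0.39. Sorcs1, a relative of sortilin, fell by 1.17 ± 0.081 (adjusted p = 6.32e-13), from 38.5 ± 3.80 to 17.2 ± 3.37 CPM.

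Of these 16 genes, 8 rose and 3 fell with Twist1 shRNA 1, and 5 rose and 4 fell with shRNA 2, against 22.7% higher and 23.6% lower of all genes for shRNA 1 and 20.2% and 21.5% for shRNA 2. Sorcs2, which pairs with p75NTR as a receptor of the Bdnf precursor, rose with shRNA 1 (0.41 ± 0.058, adjusted p = 1.24e-06) and fell with shRNA 2 (-0.45 ± 0.060, adjusted p = 5.85e-07). With shRNA 1, Tnfrsf21 fell (-0.55 ± 0.049, adjusted p = 1.03e-10), as did Kidins220, a scaffold of Trk receptors (-0.34 ± 0.045, adjusted p = 3.52e-07). With shRNA 2, Sorcs3 rose (0.38 ± 0.093, adjusted p = 0.00242) and the Nogo receptor Rtn4r, a partner of p75NTR, fell (-0.31 ± 0.084, adjusted p = 0.006).

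**Figure D5:**
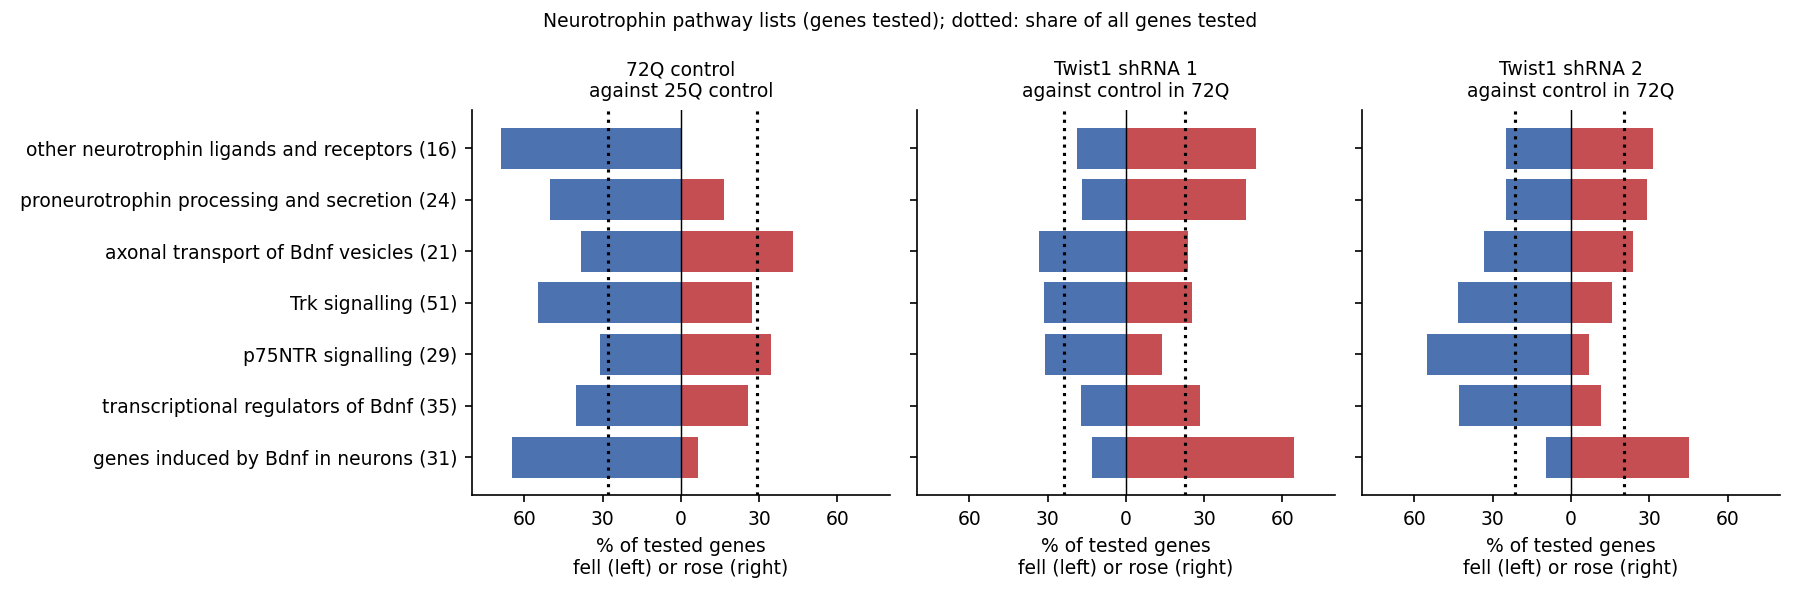
Share of the tested genes of each pathway list (number in brackets) that fell (left, blue) or rose (right, red) in 72Q against 25Q and with each Twist1 shRNA against 72Q control, in percent, with dotted lines at the share of all genes tested. Genes induced by Bdnf in neurons fell in 20 of 31 in 72Q, and rose in 20 of 31 with shRNA 1 and in 14 of 31 with shRNA 2.

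Of 31 genes that Bdnf is known to induce in neurons, 20 fell in 72Q against 25Q and 2 rose, with a median of -0.52. The transcription factor Egr3 fell by 1.96 ± 0.15 (adjusted p = 5.69e-09) to 6.85 ± 2.83 CPM, from 26.6 ± 4.11 CPM. Fosl2, of the AP-1 family, fell by 1.71 ± 0.16 (adjusted p = 4.79e-06) to 36.1 ± 17.2 CPM, from 113 ± 22 CPM. The 2 that rose were Ier2 (0.30 ± 0.091, adjusted p = 0.00521) and the signalling brake Spry4 (0.22 ± 0.086, adjusted p = 0.0281), and both fell with shRNA 1, by 0.35 ± 0.090 (adjusted p = 0.00181) and 0.26 ± 0.085 (adjusted p = 0.014).

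With shRNA 1, 20 of the 31 induced genes rose and 4 fell (median 0.42), and with shRNA 2, 14 rose and 3 fell (median 0.22). Egr4 rose by 1.06 with each, from 15.1 ± 4.02 CPM to 31.3 ± 2.52 CPM with shRNA 1 (SE 0.14, adjusted p = 3.9e-05) and to 31.5 ± 6.07 CPM with shRNA 2 (SE 0.14, adjusted p = 4.67e-05). Rasgrp1, a Ras activator, rose by 1.29 ± 0.094 with shRNA 1 (adjusted p = 2.96e-09). With shRNA 2 the neuropeptide gene Cort rose by 0.80 ± 0.21 (adjusted p = 0.00239), whereas Klf10 fell by 0.41 ± 0.055 (adjusted p = 4.09e-07) and Per1 fell by 0.17 ± 0.052 (adjusted p = 0.00801). Many of these genes also answer to neuronal activity, and the list does not separate that from Bdnf.

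Transcriptional regulators of Bdnf were more divided. Of 35, 14 fell and 9 rose in 72Q against 25Q, 6 fell and 10 rose with shRNA 1, and 15 fell and 4 rose with shRNA 2. Npas4, an activity-induced bHLH factor that acts on Bdnf promoters, fell in 72Q by 1.70 ± 0.21 (adjusted p = 3.38e-06), from 9.89 ± 0.926 to 3.03 ± 1.17 CPM, and rose with shRNA 2 by 0.63 ± 0.23 (adjusted p = 0.0381). The CREB relative Crem rose in 72Q (0.59 ± 0.090, adjusted p = 1.73e-06), as did the CREB coactivator Crtc2 (0.46 ± 0.077, adjusted p = 6.37e-06), and Crem fell with shRNA 2 (-0.52 ± 0.087, adjusted p = 1.55e-05). With shRNA 1, Mef2c rose by 0.64 ± 0.055 (adjusted p = 1.06e-10) and Fosl2 by 0.79 ± 0.16 (adjusted p = 0.00239). Mef2d fell by 0.59 ± 0.046 (adjusted p = 9.42e-12) and the E-box factor Usf2 by 0.36 ± 0.054 (adjusted p = 2.14e-06). With shRNA 2, Crtc1, which carries calcium signals to CREB, fell by 0.73 ± 0.055 (adjusted p = 6.75e-12), and Gadd45b, linked to demethylation at Bdnf promoters, rose by 0.44 ± 0.12 (adjusted p = 0.00302).

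Among 24 tested genes of precursor processing and secretion, 12 fell and 4 rose in 72Q against 25Q. The convertase Pcsk2 fell by 1.01 ± 0.060 (adjusted p = 1.29e-13), from 186 ± 27.2 to 92.6 ± 15.0 CPM, while the convertases Pcsk1 (0.60 ± 0.10, adjusted p = 9.45e-06) and Pcsk7 (0.98 ± 0.079, adjusted p = 1.8e-11) rose. Cadps2, a priming factor of dense-core vesicles that promotes Bdnf release, fell by 1.23 ± 0.12 (adjusted p = 1.16e-07), from 31.5 ± 2.73 to 13.4 ± 2.57 CPM. It rose with shRNA 1 by 0.64 ± 0.12 (adjusted p = 0.000388) and with shRNA 2 by 1.05 ± 0.12 (adjusted p = 1.62e-06), to 21.0 ± 3.59 and 27.9 ± 4.00 CPM. Furin, which cleaves the Bdnf precursor in the secretory pathway, fell with both, by 0.47 ± 0.069 (adjusted p = 1.46e-06) and by 0.74 ± 0.070 (adjusted p = 6.35e-10). In all, 11 of the 24 rose and 4 fell with shRNA 1, among them the vesicle protein Syt4 (up by 0.62 ± 0.051, adjusted p = 2.38e-11) and Pcsk7 (-0.49 ± 0.075, adjusted p = 3.92e-06). With shRNA 2, 7 rose and 6 fell, among them Mmp9, a protease of the extracellular space (up by 0.83 ± 0.21, adjusted p = 0.00211), and the active zone gene Bsn (-1.11 ± 0.055, adjusted p = 1.93e-15).

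Genes of Bdnf vesicle transport went both ways, with 9 of 21 up and 8 down in 72Q against 25Q, and 5 up and 7 down with either shRNA. Hap1, the huntingtin-associated protein that links Bdnf vesicles to motors, rose in 72Q by 1.28 ± 0.15 (adjusted p = 2.88e-05), from 74.7 ± 20.9 to 182 ± 35.2 CPM. Its partner Ahi1 rose by 0.61 ± 0.049 (adjusted p = 8.97e-12). Lower in 72Q were Dpysl2 (-0.46 ± 0.047, adjusted p = 1.11e-09) and the kinesin light chain Klc2 (-0.39 ± 0.048, adjusted p = 3.95e-08). With shRNA 1, Hap1 fell by 0.51 ± 0.14 (adjusted p = 0.0134) and Dpysl2 by 0.79 ± 0.047 (adjusted p = 1.69e-14), while the dynein chain Dync1i1 rose by 0.55 ± 0.045 (adjusted p = 2.07e-11) and dynactin 2 (Dctn2) by 0.28 ± 0.042 (adjusted p = 2.25e-06). With shRNA 2, Ahi1 rose further by 0.46 ± 0.048 (adjusted p = 4.46e-09) and Rab27b by 0.68 ± 0.070 (adjusted p = 3.27e-09), and Klc2 fell by 0.64 ± 0.049 (adjusted p = 8.3e-12) and the kinesin Kif5a by 0.40 ± 0.044 (adjusted p = 1.46e-08).

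Downstream of Trk receptors, 28 of 51 genes fell and 14 rose in 72Q against 25Q (median -0.16), 16 fell and 13 rose with shRNA 1, and 22 fell and 8 rose with shRNA 2. The calcium-dependent kinase Camk2a fell in 72Q by 0.90 ± 0.12 (adjusted p = 5.55e-05), from 720 ± 70.9 to 391 ± 86.7 CPM, and the ribosomal S6 kinase Rps6ka2 by 1.03 ± 0.077 (adjusted p = 1.58e-10). The adaptor Shc1 (0.59 ± 0.12, adjusted p = 0.000127) and Rps6ka1 (0.40 ± 0.092, adjusted p = 0.000408) rose. The ubiquitin ligase Cbl fell with both shRNAs, by 1.08 ± 0.062 (adjusted p = 8.53e-15) and 0.63 ± 0.060 (adjusted p = 6.88e-10). Nras fell with shRNA 1 by 0.96 ± 0.057 (adjusted p = 1.92e-14), and Rap1b and Camk4 rose by 0.70 ± 0.057 (adjusted p = 1.96e-11) and 0.49 ± 0.072 (adjusted p = 1.98e-05). With shRNA 2 the kinase Mapk7 fell by 1.09 ± 0.053 (adjusted p = 4.52e-16), while Cdk5 rose by 0.38 ± 0.057 (adjusted p = 2.89e-06) and Itpr1 by 0.46 ± 0.050 (adjusted p = 8.52e-09).

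Downstream of p75NTR, 10 of 29 genes rose and 9 fell in 72Q against 25Q, close to the shares over all genes. The transcription factor Jun fell (-0.54 ± 0.056, adjusted p = 1.54e-09). The gamma-secretase subunits Aph1a (0.61 ± 0.11, adjusted p = 2.55e-05) and Psenen (0.76 ± 0.24, adjusted p = 0.00772) rose. With shRNA 1, 9 fell and 4 rose, among them Prdm4 (-0.46 ± 0.051, adjusted p = 7.96e-09), Rela (-0.45 ± 0.066, adjusted p = 1.43e-06) and Adam10 (0.34 ± 0.053, adjusted p = 3.83e-06). With shRNA 2, 16 fell and 2 rose (median -0.16). Arhgdia, a GTPase inhibitor of p75NTR signalling, fell by 0.55 ± 0.044 (adjusted p = 1.6e-11), and the stress kinase Mapk10 by 0.67 ± 0.048 (adjusted p = 1.54e-12). The 2 that rose were Bex3, which binds the p75NTR death domain (0.17 ± 0.043, adjusted p = 0.00175), and Zfp110 (0.28 ± 0.062, adjusted p = 0.000426).

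Genes whose levels followed those of the 7 were found over the 16 libraries by the correlation (Pearson r) of log2 CPM after each experiment's mean was subtracted, among 13598 genes of at least 1 CPM. These r share the same libraries and groups and are given as a description. Nearest to Bdnf were Parm1 (r = 0.902), Tomm40 (0.894), Spcs3 (0.888), Scai (0.881) and Zfp68 (0.881). Parm1 had 52.0 ± 4.71 CPM in 25Q, 38.5 ± 4.23 in 72Q control, 46.2 ± 2.89 with shRNA 1 and 58.9 ± 5.89 with shRNA 2, the same order of group means as Bdnf. Nearest to Ntf3 were Phyhip (0.968), the potassium channel Kcnj4 (0.966) and Sbf1 (0.963). Ntrk2 was nearest to Fam189a2 (0.993), the insulin receptor substrate Irs2 (0.990) and Frmd4a (0.978). Sort1 was nearest to Negr1 (0.994), Tle3 (0.993) and B3gat1 (0.992).

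For Ntrk3 the nearest genes were Atp13a1 (r = 0.962), Zbtb7c (0.949) and Pcdh19 (0.947), for Ngfr Xpo1 (0.931), Sp8 (0.918) and Mrpl44 (0.895), and for the few counts of Ntf5 Inafm2 (0.941), Flywch2 (0.931) and Kif17 (0.930). Among the 7 genes themselves, Sort1 had r = 0.873 with Ntrk2 and 0.868 with Ntf3, Ngfr had 0.631 with Ntf5, and Ntrk3 had 0.628 with Ntf3. Bdnf had r = -0.264 with its own receptor Ntrk2, and positive values with Sort1 (0.107), Ngfr (0.0438), Ntf3 (0.383), Ntf5 (0.321) and Ntrk3 (0.502). In the 4 groups Bdnf was highest with shRNA 2, where Ntrk2 and Sort1 were lowest.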

How the data were processed

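RNA after removal of ribosomal RNA (Ribo-Zero) was sequenced in 16 libraries of 4 groups. Per the submitters' processing notes, reads were handled with STAR 2.0.4b and featureCounts 1.45 of Subread on GRCm38. How strand and multi-mapping reads were treated, and with which annotation release, was not given in the sources used here; reads of a gene may therefore include those of an antisense partner. The authors deposited raw counts for 41388 Ensembl genes in each library, with CPM and RPKM values beside them. Recomputed from the counts, library totals and listed gene lengths, the deposited CPM differed by at most 2.5e-11 and the deposited RPKM by at most 4.7e-11; neither entered a test, and printed levels were recomputed with TMM scaling. Symbols for 40254 genes came from GENCODE M21.

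The 7 genes, the gene lists and the motifs were chosen with earlier results of these data known. Genes were filtered with filterByExpr and fitted with edgeR 4.0.16 (R 4.3.3), glmQLFit with robust estimation and glmQLFTest, with terms for group and experiment and all 16 libraries in the fit. P-values were adjusted by Benjamini-Hochberg over 15103 genes, with a threshold of 0.05. The prior count of log2 fold changes was 2, and an SE is the fold change over the root of the F statistic. The fit was tested on simulated data with known changes. The experiment was the block because deviations from the group means correlated across genes within an experiment (0.223 to 0.612, over all pairs of groups). Title numbers match the experiment in every 72Q library but in 1 of 4 libraries of 25Q. Whether replicates were separate cultures is not said. The p-values set group differences against the spread left between these libraries after group and experiment, and reach no further than these samples.

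Groups came from the titles and the lentivirus labels. Named besides the 7 genes are, per list and comparison, up to 2 called genes of each direction with the largest change and a mean of at least 1 CPM, the genes nearest by correlation, the genes that overlap 1 of the 7, and Twist1 and Htt as checks; Ednrb, Sox10, Foxd3 and Chat were added as markers after their values were seen. Alternatives were other scaling, other filters, no block, a block by title number, another prior count, only the groups compared, DESeq2 1.42.0 and leaving out each library. Some genes that this rule selects are not reported here.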

Additional observations from a re-analysis of the deposited data

Results flagged for a closer look

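The response to the Twist1 shRNAs differed between shRNA 1 and shRNA 2 for 6 of the 7 genes, by the test of shRNA 1 against shRNA 2 in 72Q neurons. The differences (shRNA 1 less shRNA 2, log2) were 0.83 for Ntf3, -1.84 for Ntf5, 0.35 for Ntrk2, -0.18 for Ntrk3, -0.81 for Ngfr and 0.58 for Sort1. In that test 53.2% of all genes differed. Ntf5 was tested only because of its level in the shRNA 2 libraries, and without it 5 of 6 genes differed. Sort1 rose with shRNA 1 and fell with shRNA 2, while Bdnf rose with both. Twist1 itself did not differ between them by the test (-0.066 ± 0.22, 95% interval -0.53 to 0.39, adjusted p = 0.826). No library stood apart from the other 3 of its group in any of the 28 groups of values checked with Dixon's criterion for 4 samples.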

How the results depend on the processing

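The 42 changes of the 7 genes were recomputed under 747 alternatives in all, of which 699 kept direction and side of the threshold, 29 lost the call, 11 gained it and 8 changed sign. Without a replicate block, 2 of the 7 genes were called with shRNA 1 and 3 with shRNA 2 against 72Q control (Bdnf with shRNA 1 was 0.37, adjusted p = 0.123), and all genes called went from 6999 to 4561 and from 6307 to 3621; the other values of Bdnf kept their side of the threshold without the replicate block. The difference of Bdnf between the shRNAs gained a call with upper-quartile factors (-0.26, adjusted p = 0.0451), without scaling (-0.33, 0.0122), without a filter (-0.24, 0.0424) and with only those groups (-0.25, 0.0282); leaving out single libraries gave -0.35 to -0.14, with calls without either exp109b library. Without scaling beyond library totals, Bdnf against 25Q was 0.019 with shRNA 1 and 0.34 with shRNA 2. Leaving out single libraries, Bdnf with shRNA 1 ranged from 0.28 to 0.48. Signs changed for values near 0: Ntrk2 with shRNA 1 was 0.0031 and Ntrk3 0.0051 with upper-quartile factors, and with a library left out Ntrk2 with shRNA 1 ranged from -0.054 to 0.012, Ntrk3 with shRNA 1 from -0.045 to 0.0051 and Ntf5 in 72Q against 25Q from -0.31 to 0.12. Ntf5 gave no value where it failed the filter of 1 CPM or that of the groups compared. Depth limits Ntf5 and Ngfr, and for 72Q against 25Q the Bdnf, Ntf3, Ntrk3 and Sort1 calls held under every alternative.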
